A study of Mus musculus with 4 samples.

Results

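The 45 genes described here encode proteins of the large (60S) subunit of the cytosolic ribosome. They were taken as the rows of the expression table whose symbol is on a fixed list of 60S protein genes, without use of their values. All 45 had a row, out of 18200 genes in the table, and all 45 were abundant enough to be tested. The study sequenced RNA from polysomes, messenger RNAs that carry several ribosomes, of mouse ADSCs, a name the labels do not spell out (the series title speaks of mesenchymal stem cells). It has 2 groups of 2 libraries. Both groups carry the genotype WT. The control cells received a scrambled sequence (Scrambled), and the other cells received sh-Ifit1, a short hairpin RNA against Ifit1 (IFIT1 knockdown). Ifit1 encodes an interferon-induced protein that binds foreign messenger RNA at its 5′ end. By the labels, both replicates numbered 1 belong to batch 1 and both numbered 2 to batch 2. They do not say whether the replicates were separate cultures or animals, so p-values cover only how far these libraries spread, possibly for technical reasons. No library of total RNA was used here, so more messenger RNA in the cell and heavier loading with ribosomes cannot be told apart, and neither can fewer cells of a type and less RNA per cell.

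The 60S subunit joins amino acids in its peptidyl transferase centre and passes the growing chain through its exit tunnel. Its scaffold of ribosomal RNA holds a single copy of nearly every protein, and cells usually make these proteins in step. Their messenger RNAs begin with a C followed by an unbroken run of pyrimidines, the 5′ terminal oligopyrimidine (TOP) motif. Through it, growth signals acting by mTORC1 move these messages on and off polysomes as a set, with Larp1 holding them back when mTORC1 is off. Stromal cells that are growing keep them among their most abundant messages.

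The promoter windows below show pyrimidine runs that start with C near the annotated start in members that were higher, lower or did not pass. They are from RefSeq on GRCm38.p6, written 5′ to 3′ along the gene's strand, 40 bases before the annotated start of the gene and 20 bases from it on. Capitals mark the longest run of at least 8 pyrimidines that begins with C. In Rpl31, Rpl4 and Rpl5 the run ends before the annotated start, and in the other windows it spans the start or begins at or after it. Rpl31, Rpl18 and Rplp2 were higher in the libraries labelled knockdown, Rpl4, Rpl7a and Rpl5 were lower, and Rpl35 and Rpl38 did not pass the test.
Rpl31: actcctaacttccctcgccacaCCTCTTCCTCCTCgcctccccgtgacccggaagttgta
Rpl18: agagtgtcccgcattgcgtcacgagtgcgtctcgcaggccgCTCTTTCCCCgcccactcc
Rplp2: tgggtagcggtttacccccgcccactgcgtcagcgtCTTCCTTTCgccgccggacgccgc
Rpl4: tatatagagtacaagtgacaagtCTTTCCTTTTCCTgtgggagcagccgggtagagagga
Rpl7a: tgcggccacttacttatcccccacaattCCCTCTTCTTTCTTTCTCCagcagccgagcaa
Rpl5: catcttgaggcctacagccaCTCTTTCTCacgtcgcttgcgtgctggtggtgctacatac
Rpl35: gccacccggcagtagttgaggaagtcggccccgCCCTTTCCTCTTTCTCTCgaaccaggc
Rpl38: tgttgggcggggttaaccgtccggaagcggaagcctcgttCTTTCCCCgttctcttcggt
The windows lie at Rpl31 chr1:39367811-39367870 (+ strand), Rpl18 chr7:45718031-45718090 (+ strand), Rplp2 chr7:141447611-141447670 (+ strand), Rpl4 chr9:64173347-64173406 (+ strand), Rpl7a chr2:26910767-26910826 (+ strand), Rpl5 chr5:107900488-107900547 (+ strand), Rpl35 chr2:39005112-39005171 (- strand) and Rpl38 chr11:114668540-114668599 (+ strand).

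A promoter was matched by symbol for 34 of the 45 members. A run of at least 8 pyrimidines that starts with C, searched on the gene's own strand within 30 bases to either side of the start, was found for 20 of these 34 members (58.8%) and for 20.6% of all 27025 genes with a promoter in the same table. The run stood in 9 of the 15 matched members that were higher, in 4 of the 6 that were lower and in 7 of the 13 that did not pass. Members with and without the run were thus found in each class. CGGAAG, searched on both strands over the 300 bases of each promoter, was found for 22 of 34 members (64.7%) and for 18.8% of all genes. TATAAA, searched in the same way, was found for 4 of 34 members (11.8%) and 15.7% of all genes, and these 4 members (Rpl22, Rplp0, Rpl39 and Rpl36a) were all higher. GAAA followed 2 bases later by GAAA, a shortened form of the element bound after interferon, was found on either strand for 4 of 34 members (11.8%), Rpl5, Rpl4, Rpl27a and Rpl38, and for 3.99% of all genes. Among matched members, the GAAA pair stood in 0 of 15 higher, 2 of 6 lower and 2 of 13 that did not pass. CGGAAG stood in 8 of the 15, 4 of the 6 and 10 of the 13. Whether any motif goes with the direction was not tested. The other strand of CGGAAG reads CTTCCG and so can overlap a pyrimidine run. These matches describe letters in a window and are not shown to be binding sites.

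The libraries were checked against their labels first. Ifit1, the gene to be knocked down, measured 1.93 and 1.91 FPKM (fragments scaled to gene length and library depth) in the scrambled pair and 13.9 and 14.8 in the pair labelled knockdown. It was 7.47-fold higher where the label says knockdown, which goes against the label, so every direction below is between libraries as labelled. Replicates also differed in an uneven way. Across the 8750 tested genes, the log2 difference between replicates 1 and 2 of the scrambled group had a Pearson's r of -0.83 with that of the other group. The signs of these differences were opposite for 7088 genes (81.0%). Of 11 stromal markers 8 were tested, of which 7 were higher and Col1a1 was lower, and the summed level of all 11 was 64.4 and 64.5 FPKM against 108 and 107. Nt5e and Pdgfra, usual markers of such cells, stayed near 0, at or under 0.121 FPKM in every library. Of 13 markers of leukocytes, endothelium, epithelium, adipocytes and muscle, 6 had a row, with a summed level of 5.46 and 5.45 against 8.32 and 8.66 FPKM. Ptprc, Itgam, Cdh5, Kdr, Adipoq, Myod1 and Myog had no row in the table. The part of these markers in the results was not tested.

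In the libraries labelled knockdown, 18 of the 45 large subunit messages were higher and 6 were lower, and 21 did not pass the test. Members that rose included the complete P stalk (Rplp0, Rplp1, Rplp2 and Rpl12) and the smallest proteins, Rpl39 and Rpl41, which were 3.04-fold and 2.92-fold higher. Members that fell included both proteins that bind 5S ribosomal RNA (Rpl5 and Rpl11) and the large proteins Rpl4 and Rpl6, at 0.62 and 0.654 of their scrambled level. The test was limma on log2(FPKM + 1) with an adjusted p under 0.05, and every log2 change below is on that scale, labelled knockdown minus scrambled. Over all 8750 tested genes the same test called 68.7% in either direction, 27.4% higher and 41.2% lower, while for the members these shares were 53.3%, 40% and 13.3%. Changes of at least 1 on the log2 scale were found for 3 members upward (6.67%, beside 4.71% of all tested genes) and for none downward (4.06%). Changes of over 0.5 were found for 15 members upward (33.3%, beside 16.0%) and 2 downward (4.44%, beside 24.9%). The median change of the 45 members was 0.040, with 0.35 in batch 1 and 0.032 in batch 2, beside -0.025 for all tested genes (-0.13 and -0.22). With each library centred on its own median, the median of all genes moved by 0.17. There were then 27 members higher and 4 lower, beside 32.4% and 34.7% of all tested genes. In that setting 13 members that were below 0 came out above it. Other settings moved the counts the other way. Quantile normalization gave 14 higher and 12 lower, beside 28.8% and 38.4% of all tested genes. Removal, within each library, of the trend of log2 level with transcript length gave 10 higher and 22 lower, beside 26.0% and 40.8%. That removal with batch as a block gave 4 higher and 12 lower, beside 20.2% and 34.4%. Both length fits held 8456 genes. In 34 of the 45 members the change had the same sign in both batches, or 75.6%, as in 74.5% of all tested genes. The 4 libraries did not overlap between groups for 34 members, 23 higher and 11 lower, beside 74.5% of all tested genes (30.1% higher and 44.4% lower).

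**Figure D1:**
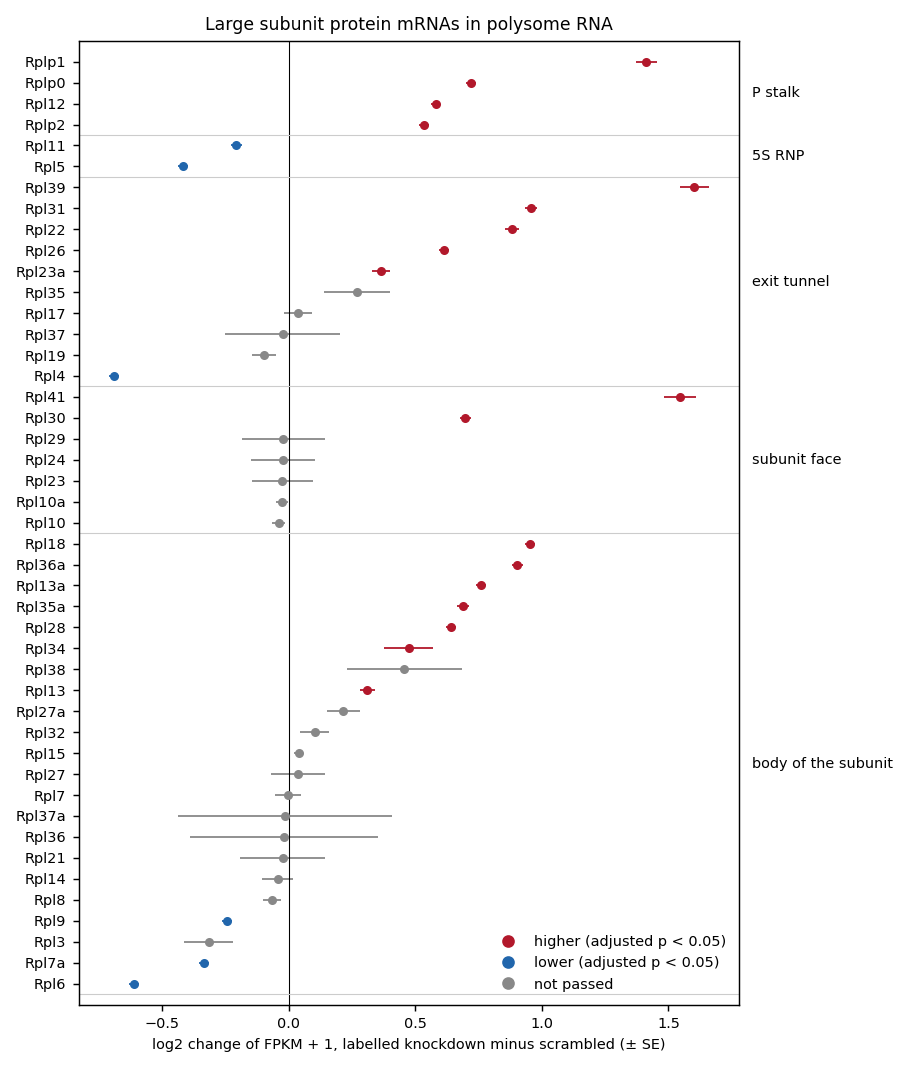
Log2 change of FPKM + 1 (labelled knockdown minus scrambled) on the x axis for each of the 45 members, grouped by place in the subunit, with bars for ± 1 SE from limma (2 libraries a group). All 4 P stalk members lie to the right of 0 and both 5S RNP members to the left. The range runs from -0.69 (Rpl4) to 1.60 (Rpl39), and the widest bars belong to Rpl37a and Rpl36.

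As a whole, the large subunit took a larger part of the polysome RNA where the label says knockdown. The summed FPKM of the 45 members made up 16.6% and 16.8% of all FPKM in the scrambled pair and 19.2% and 18.9% in the pair labelled knockdown. In fragments, read back from the FPKM values as whole numbers, the members held 8.99% and 9.29% against 11.3% and 10.9%. Each gene's number is known only up to a common divisor, and 15928 of 18200 genes were read back, so these shares are approximate. The summed FPKM was 1.30-fold higher, 101168 ± 3023 (SD, n = 2) against 131537 ± 4448 (SD, n = 2), and the groups did not overlap. An exact permutation test over 2 against 2 libraries gave p = 0.333 two-sided, the smallest it can give. The size of this difference rests on the scale: it was 1.14-fold as a share of all FPKM and 1.49-fold when libraries were scaled to the median of the tested genes. The increase was uneven over members. Their levels had a coefficient of variation of 68.6% and 67.7% in the scrambled pair and 77.8% and 79.1% in the pair labelled knockdown, so the levels lay further apart in the second group. Rpl8, which reaches the peptidyl transferase centre, had the highest mean level over the 4 libraries (7782 FPKM, second of all genes), followed by Rplp1 (7718) and Rpl32 (6091). Rpl21 had the lowest (301 FPKM).

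The P stalk is the flexible arm that recruits and activates the elongation factors, with Rplp0 and Rpl12 at its base and pairs of Rplp1 and Rplp2 hanging from it. All 4 of its messages rose, beside 27.4% of all tested genes. Rplp1 measured 4296 and 4131 FPKM in the scrambled pair and 11490.0 and 10957 FPKM in the pair labelled knockdown, a log2 change of 1.41 ± 0.040 (SE) with an adjusted p of 1.8e-04 in limma. Its partner in the stalk, Rplp2, measured 1999 and 1970.1 FPKM in the scrambled pair and 2873 and 2882 FPKM in the pair labelled knockdown, a log2 change of 0.54 ± 0.019 (SE) and adjusted p = 2.3e-04 in limma. Rplp1 thus stood 2.66-fold higher and Rplp2 1.45-fold, and the 2 changes differed by more than the spread of either pair of libraries. For Rplp0, 2441 and 2408 FPKM in the scrambled pair and 3970.0 and 4018 FPKM in the pair labelled knockdown, the change was 0.72 ± 0.020. Rpl12 measured 2667 and 2634 FPKM in the scrambled pair and 3946 and 3983 FPKM in the pair labelled knockdown, or 0.58 ± 0.019. No scrambled library reached a knockdown library for any of the 4, which held for 30.1% of all tested genes. Within batches the changes were 1.42 in batch 1 and 1.41 in batch 2 for Rplp1. For Rplp0 they were 0.70 in batch 1 and 0.74 in batch 2. When the trend of level with transcript length was taken out of each library, Rplp2 no longer passed (0.12). Under quantile normalization Rpl12 did not pass (0.20, adjusted p = 0.071 in limma). With batch as a block and the length trend removed, Rplp0 was the 1 member of the stalk that passed, and Rplp1 (adjusted p = 0.086), Rpl12 (0.087) and Rplp2 (0.42) did not in limma.

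Rpl5 and Rpl11 bind 5S ribosomal RNA, and before they enter the subunit this particle can hold Mdm2 and so stabilise p53. Both messages fell. Rpl5 measured 1047 and 1038 FPKM in the scrambled pair and 773 and 787 FPKM in the pair labelled knockdown, a log2 change of -0.42 ± 0.020 with an adjusted p of 4.4e-04 in limma. Rpl11 measured 1510.4 and 1548 FPKM in the scrambled pair and 1331 and 1319 FPKM in the pair labelled knockdown, a change of -0.21 ± 0.023 with an adjusted p of 0.0041 in limma. The libraries of each group lay close together and the groups did not overlap for either gene. Groups apart in this direction were found for 44.4% of all tested genes. Rpl11 did not pass once libraries were centred on their medians (-0.034, adjusted p = 0.49) or on the members themselves (-0.26, adjusted p = 0.069), both in limma.

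**Figure D2:**
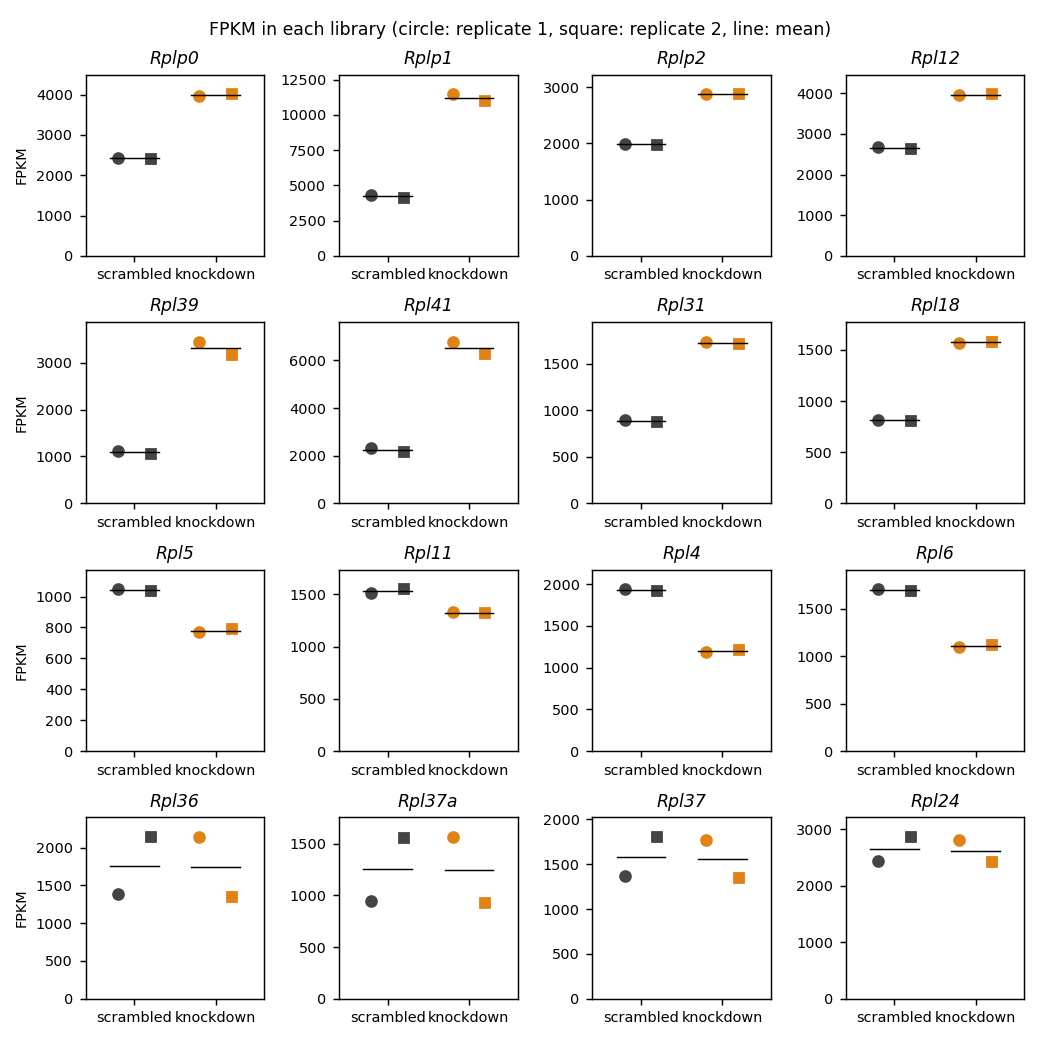
FPKM (y axis, from 0) in each of the 4 libraries for 16 members, with circles for replicate 1, squares for replicate 2 and lines for the mean of the 2 libraries of a group. The top 8 panels show members that were higher and the third row members that were lower. In the bottom row scrambled 2 and knockdown 1 stand high together, and the means of the groups are alike.

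The exit tunnel proteins line the channel through which the nascent chain leaves or ring its mouth, where targeting factors and chaperones dock. Of 10 such messages 5 rose, Rpl4 fell and 4 did not pass. These shares were 50% higher and 10% lower, beside 27.4% and 41.2% of all tested genes. Rpl39, a very short protein that forms part of the wall of the tunnel, measured 1114 and 1063 FPKM in the scrambled pair and 3446 and 3170.2 FPKM in the pair labelled knockdown. This was the largest change of the 45 members, 1.60 ± 0.058 (adjusted p = 2.4e-04 in limma), with 1.63 in batch 1 and 1.58 in batch 2. Rpl31, at the tunnel mouth, measured 899 and 877 FPKM in the scrambled pair and 1740.3 and 1710.1 FPKM in the pair labelled knockdown, a change of 0.96 ± 0.024. Rpl22, which sits on the outer surface near the mouth, measured 424 and 411 FPKM in the scrambled pair and 777 and 763 FPKM in the pair labelled knockdown, a change of 0.88 ± 0.027. For these genes the lowest library labelled knockdown was above the highest labelled scrambled. Rpl26 and Rpl23a, the latter a docking site of the signal recognition particle, also rose, by 0.61 and 0.37. Their direction was not kept under every scaling: with the length trend removed they were at -0.017 and -0.30, and Rpl23a was at -0.060 after quantile normalization, where Rpl26 no longer passed (0.18, adjusted p = 0.24 in limma).

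Rpl4, whose long loop reaches into the tunnel and helps form its narrowest point, moved the other way. It measured 1940.1 and 1924 FPKM in the scrambled pair and 1186 and 1210.3 FPKM in the pair labelled knockdown, a change of -0.69 ± 0.021 with an adjusted p of 1.9e-04 in limma. Among the 45 members it had the largest decrease, and its groups did not overlap. Rpl17, the other protein at the narrow point, measured 567 and 609.5 against 620.1 and 586 FPKM (scrambled against knockdown labels), and its groups overlapped. Rpl35 (3904 and 4577 against 5509 and 4719.8 FPKM), Rpl37 (1364 and 1803 against 1767 and 1349 FPKM) and Rpl19 (1725 and 1649 against 1529 and 1625 FPKM) also did not pass.

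On the face that meets the small subunit, 2 of 7 messages rose, none fell and 5 did not pass. The share that rose was 28.6%, beside 27.4% of all tested genes, of which 41.2% fell. Rpl41, a peptide that bridges the subunits and is the shortest of the ribosome's proteins, measured 2313 and 2162 FPKM in the scrambled pair and 6786 and 6281 FPKM in the pair labelled knockdown, a change of 1.55 ± 0.062 with an adjusted p of 2.9e-04 in limma. Rpl30 measured 2572 and 2518 FPKM in the scrambled pair and 4142 and 4113 FPKM in the pair labelled knockdown, a change of 0.70 ± 0.021. With the length trend removed, Rpl30 no longer passed (0.24, adjusted p = 0.076 in limma). The other members of this face had nearly equal group means. Rpl10, which reaches towards the peptidyl transferase centre and joins the subunit late, measured 4147 and 4277 against 4134 and 4066 FPKM, and Rpl10a, the protein of the L1 stalk that guides the leaving transfer RNA, measured 2055 and 2108 against 2055 and 2033 FPKM. Rpl23, against which the assembly factor Eif6 rests, measured 828 and 964 against 939 and 822 FPKM. Rpl24, which reaches across to the small subunit, measured 2447 and 2865 against 2802 and 2426 FPKM. Rpl29 measured 685 and 843 against 824 and 681 FPKM. In Rpl23, Rpl24 and Rpl29 scrambled 2 and knockdown 1 were the high libraries, so the replicates of a group lay further apart than the group means.

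The remaining 22 members build the body of the subunit, and 7 rose, 3 fell and 12 did not pass. These shares were 31.8% higher and 13.6% lower, beside 27.4% and 41.2% of all tested genes. Rpl18 measured 819 and 807 FPKM in the scrambled pair and 1571 and 1579.9 FPKM in the pair labelled knockdown, a log2 change of 0.95 ± 0.019 (SE). Rpl36a, at the site where transfer RNA leaves, measured 1585 and 1549 FPKM in the scrambled pair and 2947 and 2914 FPKM in the pair labelled knockdown, a change of 0.90 ± 0.023. Rpl13a, which also has a role outside the ribosome in silencing inflammatory messages, measured 3984 and 3916 FPKM in the scrambled pair and 6661 and 6704 FPKM in the pair labelled knockdown, a change of 0.76 ± 0.020. In all of them both libraries labelled knockdown were above both labelled scrambled. Rpl35a, Rpl28, Rpl34 and Rpl13 rose by 0.69, 0.64, 0.47 and 0.31. Rpl34 rested on few libraries: its change was 0.64 in batch 1 and 0.31 in batch 2, and its adjusted p in limma was 0.023, against 0.078 with batch as a block, 0.078 without scrambled 1, 0.11 without knockdown 1 and 0.058 without knockdown 2. Rpl36a no longer passed with the length trend removed (0.17, adjusted p = 0.43 in limma). Rpl35a, Rpl34 and Rpl13 were below 0 with the length trend removed (-0.015, -0.14 and -0.20), and Rpl13 also after quantile normalization (-0.013). With the length trend removed Rpl34 passed as lower (adjusted p = 0.037 in limma), so its call was reversed.

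Rpl6, Rpl7a and Rpl9 were the members of the body that fell. Rpl6 measured 1708 and 1686 FPKM in the scrambled pair and 1101 and 1120.1 FPKM in the pair labelled knockdown, a change of -0.61 ± 0.021 with an adjusted p of 2.1e-04 in limma. Rpl7a measured 2103 and 2089 FPKM in the scrambled pair and 1646 and 1678 FPKM in the pair labelled knockdown, a change of -0.33 ± 0.021. Rpl9, near the binding site of the elongation factors, measured 2096 and 2086 FPKM in the scrambled pair and 1748 and 1782 FPKM in the pair labelled knockdown, a change of -0.24 ± 0.020. Each had its 4 libraries in separate groups, with -0.63 in batch 1 and -0.59 in batch 2 for Rpl6. Rpl9 did not pass once libraries were centred on their medians (-0.071, adjusted p = 0.22 in limma). Rpl3, beside the peptidyl transferase centre, measured 2697 and 2409.7 FPKM in the scrambled pair and 1927 and 2176 FPKM in the pair labelled knockdown. Its change of -0.32 ± 0.098 did not pass (adjusted p = 0.068 in limma). In limma Rpl3 did pass as lower after quantile normalization (-0.58, adjusted p = 0.021) and when centred on the members (-0.37, 0.0056). It also passed as lower with the length trend removed (-0.57, adjusted p = 0.024 in limma).

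The 21 members that did not pass were not uniformly level. In 20 of them the replicates differed in opposite directions in the 2 groups, as in 35 of all 45 members (77.8%) and 81.0% of all tested genes. In 8 (Rpl21, Rpl24, Rpl29, Rpl35, Rpl36, Rpl37, Rpl37a and Rpl38) the replicates of both groups differed by over 0.2 on the log2 scale. These were 8 of the 45 members, beside 1638 of the 8750 tested genes. A wide spread between replicates itself makes a gene less likely to pass. In all 8, scrambled 2 and knockdown 1 were high and scrambled 1 and knockdown 2 low. Among all tested genes 1091 had this pattern, and 540 had the reverse. Rpl37a, a zinc-binding protein of the body, measured 949 and 1559 FPKM in the scrambled pair and 1567 and 924 FPKM in the pair labelled knockdown. Its change was 0.72 in batch 1 and -0.75 in batch 2, so the batches gave opposite directions. Rpl36 measured 1380.3 and 2142 FPKM in the scrambled pair and 2135 and 1348 FPKM in the pair labelled knockdown and showed the same pattern. Rpl37 measured 1364 and 1803 FPKM in the scrambled pair and 1767 and 1349 FPKM in the pair labelled knockdown. In each of these genes knockdown 1 was within a few percent of scrambled 2, and knockdown 2 of scrambled 1. Rpl38, which is needed for the translation of Hox messages in the embryo, measured 1034 and 1347 FPKM in the scrambled pair and 1865 and 1408 FPKM in the pair labelled knockdown. Its change of 0.46 ± 0.23 was 0.85 in batch 1 and 0.064 in batch 2. All 4 of its libraries lay in separate groups, yet its adjusted p in limma was 0.18. Knockdown 1 over scrambled 2 and knockdown 2 over scrambled 1 were both within 5% of 1 for 14 of the 45 members (31.1%) and for 19.0% of all tested genes. Counting error was small beside these differences: each member had between 14808 (Rpl39) and 274000 (Rpl8) fragments in a library, and the largest counting error of a member's log2 change was 0.0097.

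**Figure D3:**
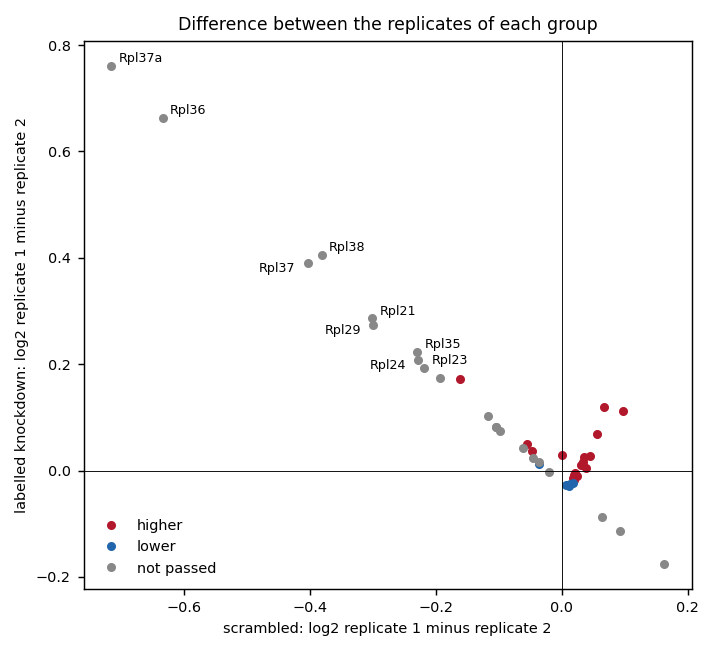
Each point is one of the 45 members. The x axis is the log2 difference of replicate 1 minus replicate 2 among the libraries labelled scrambled, and the y axis the same for those labelled knockdown. The points fall along a descending line (Pearson's r -0.96, n = 45, which share the same 4 libraries), and the 8 members that differ by over 0.2 in both groups lie at the upper left.

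Further members did not pass. Rpl27a (1089.6 and 1182 against 1366 and 1273 FPKM), Rpl32 (5661 and 6085 against 6489 and 6127 FPKM) and Rpl15 (1563 and 1584 against 1616 and 1619.7 FPKM) had both libraries labelled knockdown above both labelled scrambled, with changes of 0.22, 0.10 and 0.040. Rpl8 (7787 and 8129 against 7719 and 7494 FPKM) had both below, with -0.065. Rpl27 (1829 and 2092 against 2134 and 1891 FPKM), Rpl7 (2530.4 and 2707 against 2681 and 2545 FPKM) and Rpl14 (1545 and 1449 against 1395 and 1511 FPKM) had, like Rpl21 of the 8 above (272 and 335 against 328 and 269 FPKM), groups that overlapped.

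Shorter members tended to be the ones that rose. Across the 45 members the log2 change had a Pearson's r of -0.61 and a Spearman's rho of -0.60 with coding length (GENCODE vM21, longest coding sequence), and r was -0.55 without the 2 members farthest from the median length. With transcript length the members' correlation was weaker, with a Pearson's r of -0.15 and a Spearman's rho of -0.27. Without the 2 members farthest from the median transcript length, this r was -0.44. These genes share the same 4 libraries, so the correlations are a description. Of the 23 members with a coding length of up to 471 bases, 13 rose and none fell, with a median change of 0.47. Of the 22 longer ones, 5 rose and 6 fell, with a median of -0.033. Rplp0, at 951 bases, and Rpl18, at 564 bases, were long members that rose. The change also went with length among all tested genes, with a Spearman's rho of -0.40 against transcript length over 8456 genes. Among the 4789 other genes within the members' range of transcript length, 36.3% were higher and 30.4% lower. When the trend of level with transcript length over all genes was removed within each library, 10 members were higher and 22 lower. Of the 8456 genes in that fit, 26.0% were higher and 40.8% lower. The removal step fits levels, not the change. Mean FPKM had a Pearson's r of 0.32 with the change. The part of length in the changes was not tested beyond these values.

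**Figure D4:**
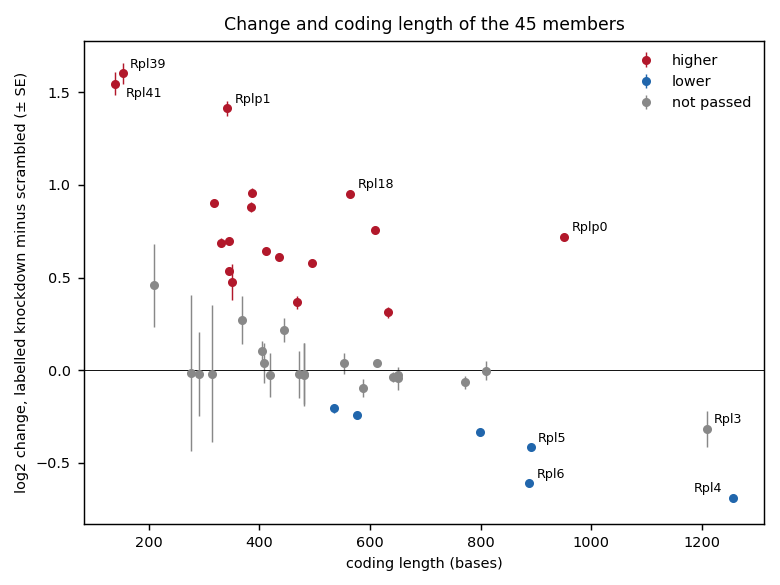
Log2 change (labelled knockdown minus scrambled, ± 1 SE from limma) of the 45 members against their coding length in bases. Rpl39 and Rpl41, at 153 and 138 bases, lie highest, and Rpl4, at 1257 bases, lowest.

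Rows for related genes were examined because their reads can be shared with a member. Rpl22l1, which can take the place of Rpl22, measured 283 and 278 FPKM in the scrambled pair and 592 and 588 FPKM in the pair labelled knockdown, a rise of 1.07 beside 0.88 for Rpl22. With the length trend removed Rpl22l1 no longer passed (0.40, adjusted p = 0.087 in limma). Rpl39l, a form of Rpl39 best known from the testis, measured 0.325 and 0.297 FPKM in the scrambled pair and 7.49 and 7.29 FPKM in the pair labelled knockdown, from 9, 10, 254 and 227 fragments. It was 23.7-fold higher but stayed far under Rpl39 in level. Rpl7l1, a relative of Rpl7 that works in subunit assembly, fell by 0.97 on the log2 scale (189 and 186 against 94.4 and 95.8 FPKM). Rpl36al measured 598 and 774 against 750.4 and 594 FPKM and did not pass, with scrambled 2 and knockdown 1 high. Rpl3l and Rpl10l had no row. Copies of 3 members were abundant enough to compare with them. Rpl6l held 11.8%, 11.8%, 11.4% and 11.4% of the level of Rpl6 over the 4 libraries and fell by 0.66. Rpl37rt held between 15.8% and 16.0% of the level of Rpl37 in all 4 libraries, and it too was high in scrambled 2 and knockdown 1. A row for a copy of Rpl34, its pseudogene 1, measured 203, 198, 325 and 325 FPKM, where the replicates lay closer than those of Rpl34 did. No source used here says how reads that match both a member and a copy were counted, so expression of a copy and reads from its parent cannot be told apart.

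Small subunit messages were counted in the same way. Of 33 small subunit messages 18 rose, 3 fell and 12 missed the threshold, with a median change of 0.27. These shares were 54.5% higher and 9.09% lower, beside 27.4% and 41.2% of all tested genes. Rps20 (352 and 341 against 804 and 779 FPKM), Rps14 (4111 and 4028 against 9001 and 8836 FPKM) and Rps12 (506 and 487 against 1097 and 1043 FPKM) had the largest increases, 1.19, 1.13 and 1.11. Rps12 no longer passed with the length trend removed (0.35, adjusted p = 0.14 in limma). With batch as a block as well, Rps14 did not pass either (0.62, adjusted p = 0.052 in limma). Rps6, the small subunit protein phosphorylated below mTORC1 (1454 and 1454 against 893 and 915 FPKM), fell together with Rps4x (1751 and 1739 against 1081 and 1106 FPKM) and Rps3a1 (3929.7 and 3924 against 2434 and 2495 FPKM), by 0.68, 0.67 and 0.67 on the log2 scale. Whether the subunits differ from each other was not tested.

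Other messages of the TOP class moved mostly down. Of 17 further TOP messages 1 rose, 13 fell and 3 missed the threshold, with a median change of -0.49. These shares were 5.88% higher and 76.5% lower, beside 27.4% and 41.2% of all tested genes. Eef2, the factor that moves the ribosome along by one codon, rose by 0.72 (1299 and 1298 against 2108 and 2160.2 FPKM). Eef1a1, which delivers transfer RNA, fell by 0.94 (5258 and 5195 against 2697 and 2746 FPKM). Hnrnpa1 fell by 1.14 (556 and 531 against 246 and 246 FPKM) and Npm1 by 0.84 (1461 and 1416 against 802 and 808 FPKM) on the log2 scale. All 6 genes listed as controlling TOP messages or ribosome synthesis fell, beside 41.2% of all tested genes. Cnbp alone changed sign, to 0.0084, when libraries were centred on their medians. In limma Cnbp also did not pass when centred on the members (adjusted p = 0.16) or with batch as a block (0.063). The same held with batch as a block and the length trend removed (adjusted p = 0.15 in limma). Larp1, which binds the cap and first bases of TOP messages, fell by 1.43 (12.4 and 12.4 against 3.94 and 4.04 FPKM), and Larp4, which binds the poly(A) tail, by 0.60 (6.5 and 6.29 against 3.88 and 3.88 FPKM). Myc, which drives transcription of ribosome genes, fell by 0.99 (55.2 and 55.5 against 27.0 and 27.6 FPKM). Tia1 (3.96 and 3.88 against 2.16 and 2.19 FPKM) and Tial1 (10.3 and 10.4 against 6.4 and 6.56 FPKM), which hold TOP messages when amino acids are short, fell by 0.63 and 0.60. Cnbp, which binds near the TOP motif, fell by 0.16 (555 and 549 against 486 and 499 FPKM).

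Factors that assemble the 60S subunit were mostly lower. Of 35 listed assembly factors 34 were tested, and 3 rose, 23 fell and 8 missed the threshold, with a median change of -0.43. These shares were 8.82% higher and 67.6% lower, beside 27.4% and 41.2% of all tested genes. Heatr3, which carries Rpl5 into the nucleus, fell by 1.14 (53.2 and 52.4 against 23.2 and 23.5 FPKM). Gnl3 fell by 1.08 (103 and 100.5 against 47.4 and 47.8 FPKM) and Nsa2 by 1.00 (76.9 and 76.9 against 37.4 and 38.3 FPKM) on the log2 scale. The factors that rose were Nop53, by 0.59 (102 and 102 against 151 and 156 FPKM), Nip7, by 0.41 (129.5 and 129 against 170.1 and 174 FPKM), and Eif6, which keeps the subunits apart, by 0.16 (429.9 and 421 against 467 and 484 FPKM). Eif6 was below 0 with the length trend removed (-0.042) and after quantile normalization (-0.064).

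**Figure D5:**
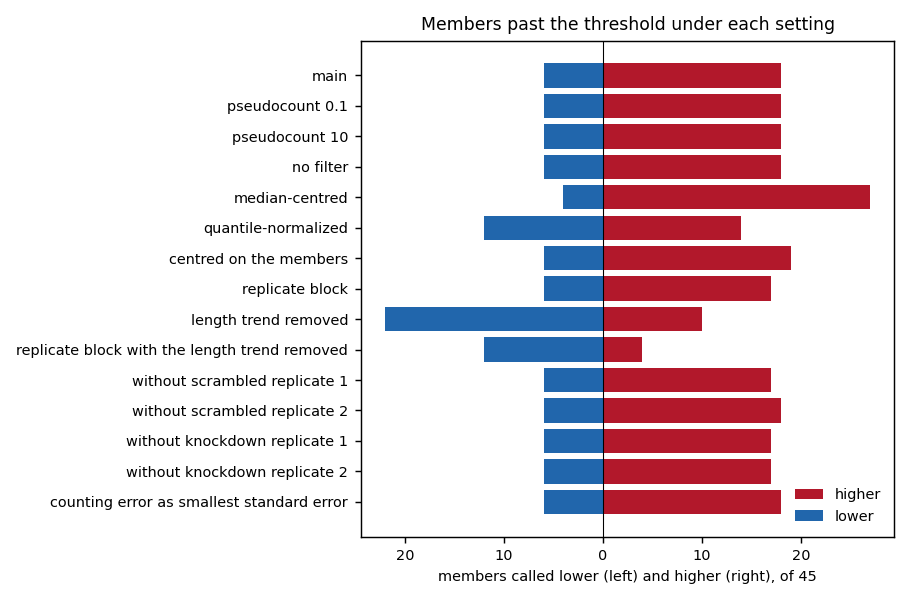
Number of the 45 members called higher (right) and lower (left) by limma under each setting, with the top bar for the values given above. Counts stay at 17 or 18 higher and 6 lower when one library is left out, and change to 10 higher and 22 lower with the length trend removed. In that last setting 26.0% of all genes were higher and 40.8% lower. Rpl18, Rpl22, Rpl39 and Rplp0 stayed higher and Rpl4, Rpl5, Rpl6 and Rpl7a stayed lower under every setting drawn.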

How the data were processed

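The 4 libraries hold polysome RNA from mouse ADSCs. Per the labels' protocols, RNA was taken up in Trizol, captured on mRNA beads and fragmented by heat. The values are FPKM, deposited by the authors as one table. The submitters' processing notes name GRCm38, mm10 and GRCm39, and no step is tied to any of them. For the aligner, counter, annotation and strandedness: not given in the sources used here. All 4 value columns were used.

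Each gene's FPKM were read back into whole fragments from ratios of low values (relative tolerance 1e-09, numbers up to 400000 tried). This gave 15928 genes and between 30440386 and 36967270 fragments a library, up to a common divisor per gene, and was tested on simulated data. Counting errors cover counting alone.

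Genes whose FPKM averaged at least 1 (8750) were fitted as log2(FPKM + 1) with limma 3.58.1 under R 4.3.3 (functions lmFit and eBayes, trend on, no batch term), two-sided, Benjamini-Hochberg adjusted over all tested genes with a threshold of 0.05. A fold on the log2(FPKM + 1) scale understates changes of low genes. Figures used matplotlib 3.10.9 and Python 3.11.15.

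The labels' batch pairs the replicates. As a check, replicate differences of the groups were compared and had a Pearson's r of -0.83 over 8750 genes, which share the same 4 libraries. Which libraries were prepared together was not tested.

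The members come from a fixed list of 60S protein genes that does not use their values. They and the other lists were still chosen with earlier results of these data known, so counts within a list may reflect that choice. Named with values were the 10 largest changes a direction among members past the threshold, every member of the P stalk, 5S RNP and subunit face, members that did not pass, related 60S genes and TOP regulators, and the 3 largest changes a direction of the other lists. Some listed genes are not reported here. Pseudogenes were counted, and named only as rows carrying a member's symbol. Alternatives were pseudocounts of 0.1 and 10, no filter, other scalings, batch as a block, removal of a length trend and leaving out each library.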

Additional observations from a re-analysis of the deposited data

How the results depend on the processing

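With pseudocounts of 0.1 and 10, without the filter, with counting error as the smallest standard error (chosen after seeing the data), or with each library left out in turn, 17 or 18 members stayed higher and 6 lower. Without the filter 3819 genes were higher in place of 2401, since 18200 genes were then tested. With the replicate block, 17 members were higher and 6 lower; Rpl34 (adjusted p = 0.078 in limma) lost its call and no other member did. Crossing the pairs (scrambled 1 with knockdown 2, chosen after seeing the data) as a block gave 25 members higher and 11 lower. Of all tested genes 33.9% were higher and 48.9% lower in that fit. In the lists, 2 exit tunnel members and 1 subunit face member were lower. Of the body members 12 were higher and 6 lower, and 2 other TOP messages were higher. Quantile normalization gave 14 higher and 12 lower, centring on the members 19 and 6, and median-centring 27 and 4. Over all tested genes these shares were 28.8% and 38.4%, 20.8% and 38.4%, and 32.4% and 34.7%. With the length trend removed the shares of all genes were 26.0% and 40.8%, and with the replicate block as well 20.2% and 34.4%.

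Counts that moved by over 1.5 times were as follows. After quantile normalization there were 3 exit tunnel members higher, 2 subunit face members lower, 7 body members lower and 7 small subunit messages lower. Median-centring gave 1 5S RNP member lower, 4 subunit face and 12 body members higher, 2 other TOP messages higher and 5 assembly factors higher. Centring on the members left 1 5S RNP member lower. With the length trend removed, 10 members were higher and 22 lower: 3 exit tunnel members higher and 3 lower, 1 subunit face member higher and 5 lower, 3 body members higher and 12 lower, 1 related 60S gene higher, and 8 small subunit messages higher and 10 lower. The replicate block with the length trend removed gave 4 higher and 12 lower: 2 exit tunnel members, 1 P stalk, 0 subunit face and 1 body member higher, 4 subunit face and 5 body members lower, 1 related 60S gene higher, and 4 small subunit messages higher and 7 lower. The summed FPKM ratio was 1.14 as a share of all FPKM and 1.49 scaled to the median.

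Signs turned as follows, as log2 changes. With the length trend removed, with or without the replicate block: Rpl13 -0.20, Rpl15 -0.029, Rpl17 -0.22, Rpl23a -0.30, Rpl26 -0.017, Rpl27 -0.50, Rpl27a -0.11, Rpl32 -0.35, Rpl34 -0.14, Rpl35 -0.16, Rpl35a -0.015, Rpl38 -0.31, Eif6 -0.042. Median-centred: Rpl7 0.17, Rpl8 0.11, Rpl10 0.13, Rpl10a 0.15, Rpl14 0.13, Rpl19 0.076, Rpl21 0.15, Rpl23 0.15, Rpl24 0.15, Rpl29 0.15, Rpl36 0.15, Rpl37 0.15, Rpl37a 0.16, Rpl36al 0.15, Cnbp 0.0084. Quantile-normalized: Rpl13 -0.013, Rpl15 -0.083, Rpl17 -0.13, Rpl23a -0.060, Rpl27 -0.13, Rpl27a -0.018, Rpl32 -0.35, Rpl35 -0.11, Eif6 -0.064. Centred on the members: Rpl15 -0.012, Rpl17 -0.016, Rpl27 -0.014. Over the 4 fits that each left out 1 library: Rpl7 -0.052 to 0.046, Rpl14 -0.10 to 0.014, Rpl17 -0.016 to 0.088, Rpl21 -0.17 to 0.13, Rpl23 -0.13 to 0.084, Rpl24 -0.14 to 0.092, Rpl27 -0.058 to 0.14, Rpl29 -0.17 to 0.13, Rpl36 -0.35 to 0.31, Rpl37 -0.22 to 0.18, Rpl37a -0.40 to 0.37, Rpl36al -0.21 to 0.16. The cause was not tested. Where a group is left with 1 library, it is assumed to vary like the other group.

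With 2 libraries a group the fit has 3.06 degrees of freedom a gene, and the fit's median standard error (0.0208) lies under the median counting error (0.0456); for the members the counting error is at most 0.0097. The FPKM scale is not tied to an external standard, so a shift common to all genes cannot be seen. Reads shared with copies were not resolved for Rpl6, Rpl34 and Rpl37.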
